A study of Caenorhabditis elegans with 2 samples.

Results

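The genes hlh-30, daf-5, kin-1, ppfr-1 and ccch-1 of Caenorhabditis elegans were examined as long genes of regulatory proteins that each carried several peaks of moderate height in a chromatin immunoprecipitation experiment with sequencing (ChIP-seq). They are 5 of 19973 protein-coding genes, and they were chosen from the number and the height of their peaks, so those values are given as a description without a test. Every sample came from strain OP154, which carries unc-119(ed3) and the integrated transgene wgIs154 and makes the zinc finger protein PAG-3 with a GFP and FLAG tag at its C-terminus. Hermaphrodites synchronized by bleaching and starvation in the first larval stage (L1) were taken as whole organisms 6 hours after synchronization, and tagged protein was precipitated with an antibody to GFP. The series holds 1 group of 2 biological replicates, with no untagged or input sample analysed here, and whole larvae mix all cell types, so a weak peak in all cells and a strong one in few cells cannot be told apart. Read depth is unknown, because the lists give regions with a signal (a height on a scale that the sources used here do not state) and no read counts.

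All 5 genes encode proteins that act on other genes or proteins. HLH-30 is the worm relative of the vertebrate factor TFEB, a basic helix-loop-helix protein that switches on genes of autophagy and lysosomes when food is scarce. DAF-5 belongs to the Sno/Ski family and works with the Smad protein DAF-3 in the TGF-beta pathway of the dauer decision, the choice of L1 and L2 larvae between growth and a resistant resting stage. KIN-1 is the catalytic subunit of protein kinase A, the kinase that cyclic AMP releases from its regulatory subunit KIN-2. PPFR-1 is a regulatory subunit of protein phosphatase 4, and CCCH-1 is a protein with zinc fingers of the CCCH type, a fold that in many proteins binds RNA. PAG-3 itself is a worm relative of the Gfi1 repressors and is known for roles in touch neurons and ventral cord neurons.

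The authors kept 910 peaks at a threshold on the irreproducible discovery rate (IDR, a measure of how well ranks match between replicates), and 22 of them had their summit in one of the 5 genes or within 5 kb of it. All 22 summits lay inside the gene models. The numbers were 9 at hlh-30, 3 at daf-5, 3 at kin-1, 4 at ppfr-1 and 3 at ccch-1. Of all protein-coding genes, 10.2% had at least 1 thresholded summit in the gene or within 5 kb and 0.23% had at least 3, and among the 531 genes at least as long as ccch-1, the shortest of the 5 at 13389 bp, the share with at least 3 was 2.26%. Since the 5 genes were picked for this count, nothing is read from the contrast. The joint list of the replicates (30000 regions, background included) placed 111 regions at these loci.

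Sequences of 101 bases centred on the highest summits of hlh-30 and on all summits of daf-5 and ccch-1 show what lay under the peaks. They are read from the plus strand of the RefSeq genome of assembly WBcel235 (ce11), and capitals mark any match, on either strand, to 5 short sequences: GAGAGA repeats, the sequence ATGGCA, the sequence GACGCA, the E-box CACGTG and the Gfi1-type core AATCAC.
hlh-30, chrIV:4020016-4020116: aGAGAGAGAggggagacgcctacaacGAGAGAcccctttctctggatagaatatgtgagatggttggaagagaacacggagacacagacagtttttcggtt
hlh-30, chrIV:4024347-4024447: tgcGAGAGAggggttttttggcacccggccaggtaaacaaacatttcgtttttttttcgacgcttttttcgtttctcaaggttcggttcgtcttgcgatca
hlh-30, chrIV:4030952-4031052: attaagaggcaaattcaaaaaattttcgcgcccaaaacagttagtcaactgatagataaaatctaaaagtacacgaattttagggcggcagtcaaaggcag
daf-5, chrII:14050619-14050719: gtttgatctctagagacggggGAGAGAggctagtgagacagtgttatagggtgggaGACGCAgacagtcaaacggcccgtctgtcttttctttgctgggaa
daf-5, chrII:14040265-14040365: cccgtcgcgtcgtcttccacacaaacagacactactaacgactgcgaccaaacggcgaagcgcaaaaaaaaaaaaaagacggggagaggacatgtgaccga
daf-5, chrII:14044404-14044504: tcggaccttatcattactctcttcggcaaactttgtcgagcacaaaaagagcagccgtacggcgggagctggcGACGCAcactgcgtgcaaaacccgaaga
ccch-1, chrV:11533055-11533155: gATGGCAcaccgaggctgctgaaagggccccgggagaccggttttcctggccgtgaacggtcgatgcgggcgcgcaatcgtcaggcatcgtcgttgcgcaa
ccch-1, chrV:11532228-11532328: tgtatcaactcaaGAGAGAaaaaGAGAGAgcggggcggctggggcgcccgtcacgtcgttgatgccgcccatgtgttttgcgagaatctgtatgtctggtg
ccch-1, chrV:11530879-11530979: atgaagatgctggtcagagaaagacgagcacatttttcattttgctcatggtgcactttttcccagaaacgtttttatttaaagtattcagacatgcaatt
The hlh-30 window with the highest signal starts with a run of GA repeats. The windows of daf-5 at 14044454 and 14050669 each hold GACGCA, the one at 14050669 GAGAGA as well, and the ccch-1 window at 11532278 holds GAGAGA in 2 places. The ccch-1 window at 11533105 opens with ATGGCA. The hlh-30 window at 4024397 holds GAGAGA near its start. The remaining 3 windows hold no capitals, which says only that these letters are not in those windows.

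Before the values of hlh-30, a difference between the replicates at its locus has to be given. In replicate 2, 52 listed regions followed each other with gaps under 2 kb between summits, from 4008049 to 4038414 on chromosome IV, a stretch of 30.4 kb with a median gap of 561 bp. The gaps to the next region were 4177 bp before the stretch and 4875 bp after it. It reached 3463 bp beyond the hlh-30 start and 6744 bp beyond its end, into the last part of the lectin gene clec-78. Of these 52 regions, 35 were among the 2000 highest of replicate 2. Replicate 1 listed 24 regions in the same stretch, of which 3 were among its 2000 highest. The next longest such run of replicate 2 had 18 regions over 17.0 kb, with 3 among the highest 2000, and lay on chromosome X. In windows of 30 kb moved along the genome in steps of 5 kb, replicate 2 had up to 47 regions at hlh-30 and at most 24 elsewhere, with a median of 9. The same windows of replicate 1 held up to 24 regions at hlh-30 and up to 32 elsewhere, also with a median of 9. The longest run of replicate 1 had 29 regions over 22.3 kb on chromosome II, with 5 among its highest 2000.

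The tagged gene did not show a run like that of replicate 2 at hlh-30. Within 5 kb of pag-3, replicate 2 listed 0 regions and replicate 1 listed 3, and at unc-119, the marker gene of the strain, they listed 4 and 3. None of these was among the 2000 highest of its list. The lists hold no reads of the sample or of the control, so more protein bound along hlh-30 and more DNA of that stretch in replicate 2 cannot be told apart. Whether replicate 2 held material of the labelled strain alone was not tested and cannot be settled from these lists. If it held another tagged strain, its ranks and the pooled signals at all 5 genes would not report PAG-3 alone. The plot of both replicates around hlh-30 shows the run, and the summaries over the 22 peaks are also given for the 13 outside hlh-30.

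**Figure D1:**
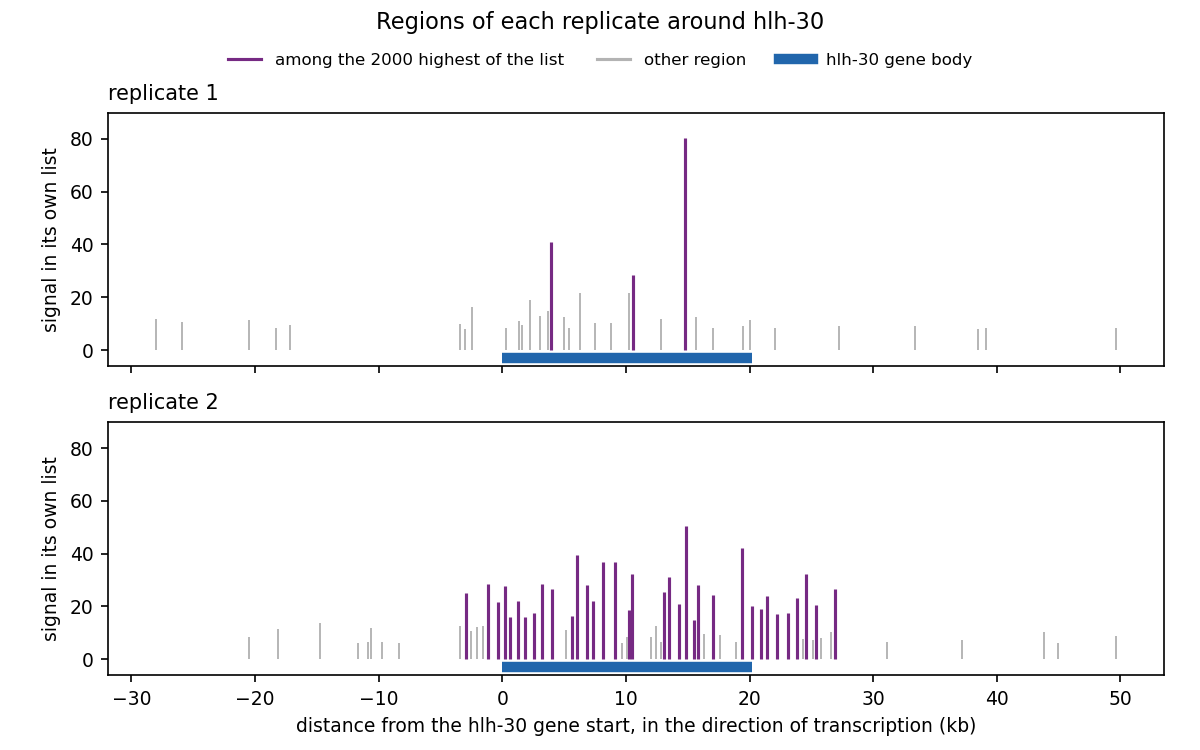
Regions listed for replicate 1 (upper panel) and replicate 2 (lower panel) around hlh-30. The x axis is the distance from the gene start in kb, in the direction of transcription, the y axis is the signal in the list of that replicate, each line is 1 region, purple lines are among the 2000 highest of the list and the blue bar is the gene. Replicate 2 has a dense run of 52 regions with clear ends, and replicate 1 has 3 purple lines at the gene.

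The gene hlh-30 (WBGene00020930, minus strand) spans 4014793 to 4034951 on chromosome IV, 20.2 kb, with 13 transcripts. Its 9 thresholded peaks had signals from 43.4 to 135 and ranks from 81 to 909 of the set. The highest, with a summit at 4020066, had a signal of 135 and ranked 130 in replicate 1 (signal 80.3) and 46 in replicate 2 (signal 50.3). The summit lay in the second and longest intron of the longest transcript, 6 bp from the non-coding RNA gene W02C12.4 and 14885 bp inward of the gene start. Signals are on the scale of each list and their levels are not compared between replicates. The peak at 4031002 in the first intron had a pooled signal of 63.8 and ranked 506 in replicate 1 and 215 in replicate 2. Those at 4024397 and 4024674 lay 277 bp apart, shared 63 bp, and ranked 1149 and 2069 in replicate 1 against 128 and 671 in replicate 2.

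The other 5 peaks of hlh-30 either ranked low in replicate 1 or had no summit of it within 100 bp. That at 4015538, the single summit of the 22 in an exon, ranked 19653 in replicate 1 and 65 in replicate 2. The one at 4017868 ranked 25871 in replicate 1 and 259 in replicate 2. These lay 1303 and 3633 bp from clec-78. Summits at 4026779 and 4028805 had no replicate 1 summit within 100 bp and ranked 89 and 76 in replicate 2. For 4028805, which lay 6146 bp from the gene start, this rests on the matching distance. A replicate 1 region of rank 2052 (signal 21.7) lay just beyond 100 bp, at 6.26 kb from the start. The peak at 4019264 ranked 9044 in replicate 1 and had no summit of replicate 2 within 100 bp, although regions of the run lay to both sides. Among the 910 highest regions of each replicate alone, hlh-30 held 2 in replicate 1 and 28 in replicate 2. The count of 9 for this gene therefore rests on replicate 2, and the peaks at 4020066 and 4031002 are the ones present among the highest 910 of replicate 1. No protein-coding gene other than hlh-30 had more than 5 thresholded summits by the same count.

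**Figure D2:**
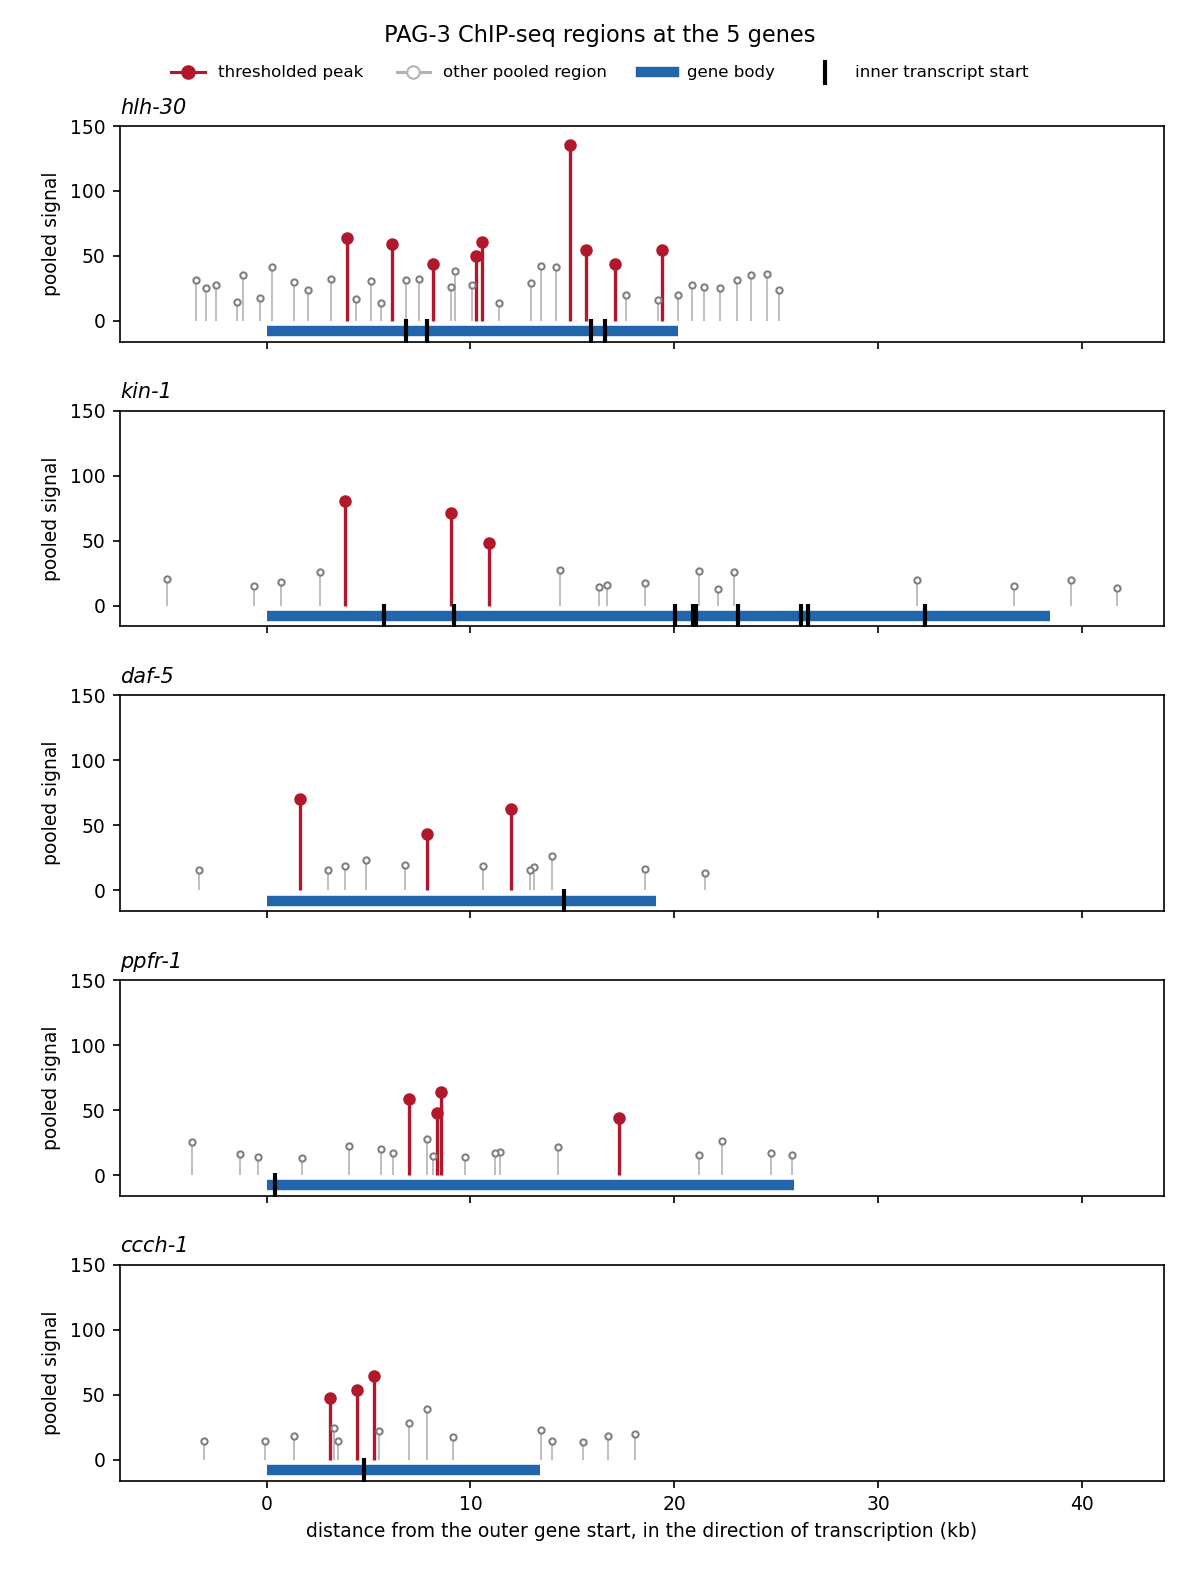
Pooled regions at the 5 genes. The x axis is the distance from the outer gene start in kb, in the direction of transcription, and the y axis is the signal in the joint list of the replicates. Red points are thresholded peaks, open points are other pooled regions, blue bars are gene bodies and black ticks are transcript starts inside the gene. The hlh-30 panel holds 41 regions and the other panels hold 14 to 21.

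The gene daf-5 (WBGene00000901, minus strand) spans 14033216 to 14052304 on chromosome II, 19.1 kb, and its 3 peaks all lay in its first intron, which is 14446 bp long and makes up 75.7% of the gene. From the start inward they lay at 1635, 7850 and 11989 bp, with signals of 70.0, 43.7 and 62.9. The first ranked 153 in replicate 1 and the middle one 514, and neither had a summit of replicate 2 within 100 bp. The third, at 14040315, ranked 691 in replicate 1 and 271 in replicate 2. It is thus the daf-5 peak found in both lists. Neighbouring summits were 4139 and 6215 bp apart, and no other protein-coding gene lay within 5 kb of any of them.

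Among the signalling enzymes, kin-1 (WBGene00002189, plus strand) is the longest of the 5 genes, at 38.5 kb (14913766 to 14952226 on chromosome I), and only 22 protein-coding genes are longer. It has 15 transcripts, which begin at 9 positions inside the gene besides the outer start. Its 3 peaks lay in the first part of the gene, 3846, 9046 and 10888 bp from the start, with signals of 80.2, 71.4 and 48.4. All 3 had a match in each replicate, with ranks of 156, 287 and 721 in replicate 1 and of 977, 11112 and 1179 in replicate 2. The non-coding RNA gene F21F12.2 lay 201 bp from the third summit, and the protein-coding gene ptr-23 lay 4529 bp from the first. The second summit lay 165 bp upstream of an inner transcript start. No thresholded peak fell in the rest of the gene, where 7 of the 9 inner starts lie, and the highest pooled region not in the set had a signal of 27.1 (rank 3178).

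The gene ppfr-1 (WBGene00008878, minus strand) spans 25.9 kb, 9364099 to 9389982 on chromosome I, and carried 4 peaks. The pair at 9381444 and 9381644 lay 200 bp apart and shared 140 bp, with signals of 64.0 and 47.9, so they may not be separate sites. The pair lay in the fifth intron, the longest of the gene at 10404 bp. The peak at 9382999 in the fourth intron had a signal of 58.8 and lay inside the antisense RNA gene anr-20 and inside 2 non-coding RNA genes, one on each strand, that are both named F16A11.7. The last, at 9372712 with a signal of 43.8, lay 56 bp from the microRNA gene cel-mir-2, again in the fifth intron. In replicate 1 the 4 ranked 361, 1239, 405 and 2167 in this order. Replicate 2 had matches for 9381644 (rank 809) and 9372712 (rank 926) and none within 100 bp for the other 2. ChIP peaks carry no strand, so the peak at 9382999 cannot be given to any 1 of these genes. The non-coding RNA gene F16A11.13 lay 73 bp from the summit at 9381644 and 273 bp from that at 9381444.

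The gene ccch-1 (WBGene00009532, plus strand) spans 11527831 to 11541219 on chromosome V and is the shortest of the 5. Its 3 peaks lay within 2176 bp of each other in the third intron, at 3098, 4447 and 5274 bp from the start. Signals were 47.8, 53.6 and 64.1. The non-coding RNA genes F38B7.15 and F38B7.16 lay 28 and 48 bp from the middle summit. The middle summit at 11532278 lay 335 bp upstream of the inner transcript start. Its ranks were 1011 in replicate 1 and 279 in replicate 2. That at 11533105 lay 492 bp downstream of it and ranked 286 in replicate 1 with no match in replicate 2. The peak at 11530929 ranked 966 in replicate 1 and 2848 in replicate 2. One more region, at 11535710, stayed just outside the set with a signal of 38.7 and a pooled rank of 1219.

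Some members lay close to the threshold. The 4 lowest thresholded peaks at these genes had signals of 43.4 and 43.5 at hlh-30, 43.7 at daf-5 and 43.8 at ppfr-1, and ranks from 888 to 909. The nearest regions outside were 3 at hlh-30, with signals of 42.1, 41.8 and 41.3. Over all 910 peaks the signal ran from 43.4 to 1509 with a median of 58.5, and over the 22 it ran from 43.4 to 135 with a median of 56.9, with 11 of them under the median of the set. The 13 outside hlh-30 had a median of 58.8, with 6 under that of the set. One summit of the 22, at hlh-30, was among the 100 highest.

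The replicates were also compared for all 22 peaks. Within 100 bp of a summit, 20 of the 22 had a region in replicate 1, 16 had one in replicate 2 and 14 had one in both (63.6%, Wilson 95% interval 43.0 to 80.3), while 82.5% of all 910 peaks were matched in both. Without hlh-30, all 13 were matched in replicate 1, 8 in replicate 2 and 8 in both. The thresholded set was itself made from both replicates, so a match is no independent check. In the list of replicate 2 alone, kin-1 had 0 regions among the highest 910 and the other 3 genes besides hlh-30 had 1 each. In that of replicate 1 alone, kin-1 and daf-5 had 3 each and ppfr-1 and ccch-1 had 2 each. The intervals of shares cover counting error only, and peaks of 1 gene share their locus.

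**Figure D3:**
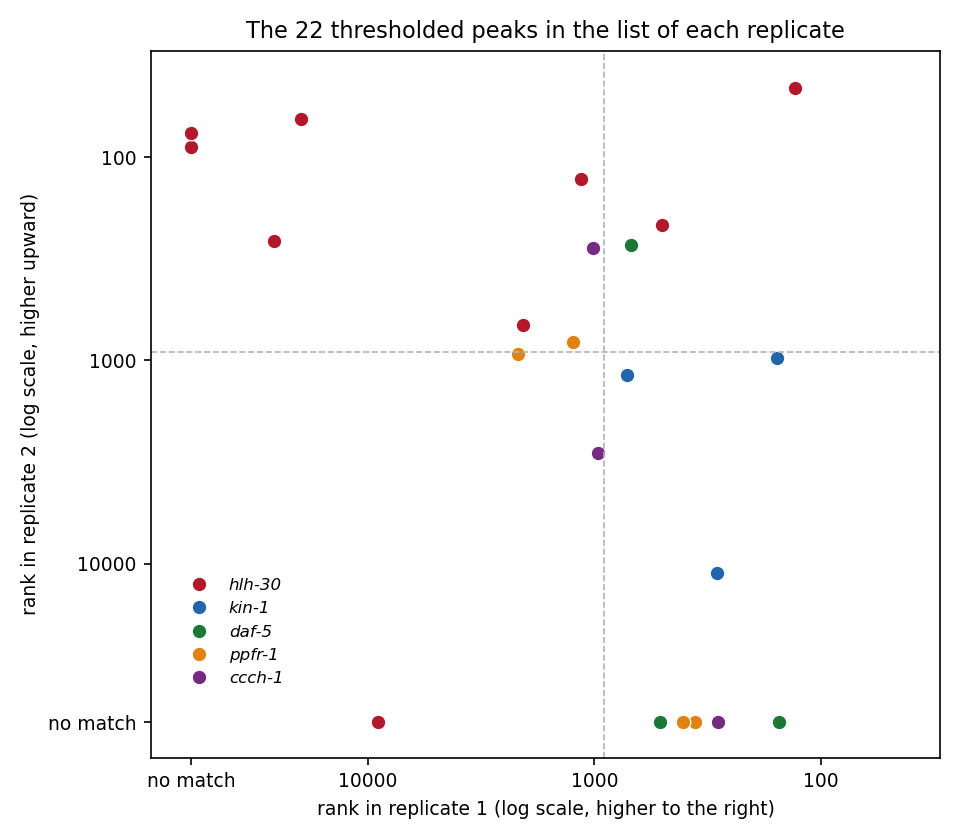
Rank of each of the 22 thresholded peaks in the list of replicate 1 (x axis) and replicate 2 (y axis), both on log scales with the highest regions toward the upper right. Colours are genes, dashed lines mark rank 910 and points at "no match" had no summit within 100 bp. The 2 hlh-30 points at the left edge rank 76 and 89 in replicate 2, and the points along the bottom edge have ranks in replicate 1 of 153 to 9044.

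The summits of a gene lay close together. The 17 distances between neighbouring summits of 1 gene ran from 200 to 8732 bp with a median of 2026 bp, and the median without hlh-30 was 1842 bp. Distances under 2000 bp made up 8 of the 17, against 6.53% of the 904 distances between neighbouring thresholded summits of each chromosome, whose median was 58491.5 bp. Genes with several peaks must have close ones, so this contrast follows from the choice of genes. By gene the median distance was 2065.5 bp at hlh-30, 5177 bp at daf-5, 3521 bp at kin-1, 1355 bp at ppfr-1 and 1088 bp at ccch-1.

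Introns held 21 of the 22 summits (95.5%, Wilson 95% interval 78.2 to 99.2), where an intron is a place in no exon of any transcript of the gene. Such places make up 79.2% to 86.1% of these gene bodies. Over all thresholded summits inside a protein-coding gene the share was 78.5%. The longest intron of each gene, which together make up 53.2% of the gene bodies, held 16 of the 22. No summit lay in the 1 kb before the start of its gene. The distances from the outer start ran from 1635 bp at daf-5 to 19413 bp at hlh-30.

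Starts of transcripts inside the gene were near some of the summits. Within 500 bp of an inner transcript start lay 6 of the 22 (27.3%, Wilson 95% interval 13.2 to 48.2), 3 of them at hlh-30, 1 at kin-1 and 2 at ccch-1. The share over all thresholded summits in genes with an inner start was 30.1%. Outside hlh-30 it was 3 of the 13 (23.1%). The members' share depended on the setting: it was 9.09% within 250 bp, against 13.4% over all such summits, and 8.33% in the highest 910 regions of replicate 1 alone, against 32.4% over all. In those of replicate 2 alone it was 19.4% of all 31 regions at the loci, some of them outside the gene bodies. The share over all, 27.4%, counted only summits inside genes with an inner start, so these shares have unlike bases and are not compared. Places within 500 bp of such a start make up 18.4% of hlh-30, 19.2% of kin-1, 5.24% of daf-5, 3.47% of ppfr-1 and 7.48% of ccch-1. The daf-5 peaks lay at least 2594 bp from its inner start, and the ppfr-1 peaks at least 6585 bp from its own.

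Pooled regions, background included, were denser at these loci than the genome mean of 0.299 per kb. There were 41 at hlh-30 (1.36 per kb), 14 at daf-5 (0.481), 18 at kin-1 (0.371), 21 at ppfr-1 (0.585) and 17 at ccch-1 (0.727). At hlh-30 replicate 2 alone listed 47 regions and replicate 1 listed 24. At the other 4 genes the lists of replicate 2 held 9 to 21 regions and those of replicate 1 held 14 to 26. The genes were chosen for their peaks, which are part of the joint list, so nothing is read from its density.

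Short sequences were counted within 50 bp of each summit. GAGAGA was present at 9 of the 22 (40.9%, Wilson 95% interval 23.3 to 61.3), and at 28.8% of all 910 summits. In windows centred 300 bp to each side it was found in 13.6% for the member summits and in 7.20% for all 910. Outside hlh-30 it was present at 6 of the 13. The GAGAGA share of the 22 depended on the distance: it was 18.2% within 25 bp and 54.5% within 100 bp. No share over all 910 is given here for these distances. GACGCA lay at 3 of the 22 (all 910 summits: 12%), ATGGCA at 2 (15.2%) and CACGTG, the E-box that HLH-30 and other helix-loop-helix proteins bind, at 2 (5.71%). Both CACGTG matches were at the overlapping ppfr-1 pair, and none was at hlh-30. AATCAC, the core of the site of vertebrate Gfi1, was at 0 of the 22, with a Wilson 95% interval of 0 to 14.9%, and at 5.05% of all 910. At least 1 of the 5 sequences was held by 11 of the 22, by 8 of the 13 outside hlh-30 and by 51% of all 910, so the members' share was near the background. Median GC content was 46.5% at the 22 summits and 51.5% at the 13 outside hlh-30, and 43.6% at all 910. The side windows of the 22 had a median of 38.6%. Above the mean of their own side windows were 17 of the 22 and 10 of the 13, and 84.6% of all 910. The sequences were taken from earlier results on these data, and no test was made.

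Other genes of the same pathways were counted from lists, written for lysosome and autophagy genes of the HLH-30 axis, cyclic AMP and protein kinase A, dauer and body size TGF-beta, phosphatases of the PP2A, PP4 and PP6 kind and CCCH zinc finger proteins. Leaving out the 5 genes, 21 of 134 listed genes had a thresholded summit in the gene or within 5 kb (15.7%), beside 10.2% of all protein-coding genes. By list the counts were 9 of 48 for lysosome and autophagy, 5 of 27 for TGF-beta and 4 of 16 for CCCH proteins. They were 2 of 20 for cyclic AMP and 1 of 23 for the phosphatase list. The lists are wider than their names. The 1 gene of the phosphatase list is mei-2, of a katanin subunit and not a phosphatase. The 5 of the TGF-beta list include daf-12, of a nuclear receptor, and daf-16, of a factor of insulin signalling. Counts within 5 kb of a gene grow with its length, and genes share peaks with their neighbours.

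In the lysosome and autophagy list the highest peaks were at vha-15 (277) and atg-5 (258). The first gene encodes a subunit of the proton pump of lysosomes, the second a part of the system that builds autophagosome membranes. Both peaks lay beyond the end of the gene, 5099 and 9667 bp from its start. A peak of 93.6 lay outside vha-13, at -4306 bp from its start. The peak of epg-9 (69.9), a partner of the ATG-13 complex, lay in an intron 1027 bp from its start. In the TGF-beta list, daf-3, whose product is the Smad partner of DAF-5, had a peak of 94.6 outside the gene, at -2282 bp from its start, and daf-8, which encodes another Smad, had one of 60.8 at -3245 bp. The gene daf-12, of a nuclear receptor of the dauer decision, had a peak of 56.2 in an intron. In the same list sma-9 had 2 summits, the higher with a signal of 63.3 in an intron. In the cyclic AMP list there was a peak in an intron of akap-1 (49.2), which encodes an anchor of protein kinase A, and one outside acy-1 (51.2), of an adenylyl cyclase. The peak of the phosphatase list lay outside mei-2 (70.6), of a katanin subunit. In the CCCH list, peaks lay outside mex-1 (73.8) and oma-2 (49.1), in an exon of ccch-3 (46.9) and in an intron of mbl-1 (46.2).

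For each of the 5 genes the closest other gene was sought by the Euclidean distance over log2 gene length, log2 number of thresholded summits and log2 of the highest signal, among 243 genes with at least 2 summits. It was myrf-2 for hlh-30 (distance 1.71), unc-9 for daf-5 (0.41), daf-16 for kin-1 (0.63) and for ppfr-1 (0.42), and dyc-1 for ccch-1 (0.19). The closest to hlh-30 by this measure had 3 summits, and the highest number at any other gene was 5. The gene daf-16, which encodes the FOXO factor of insulin signalling, is 26.2 kb long and had 3 summits, 2 of them in the gene, with a highest signal of 65.0. The gene dyc-1 is 14.4 kb long with 3 summits inside it and a highest signal of 57.5. Of the 46 genes with at least 3 summits, the highest signal of ppfr-1 was above that of 6, of ccch-1 above 7, of daf-5 above 10, of kin-1 above 14 and of hlh-30 above 25.

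**Figure D4:**
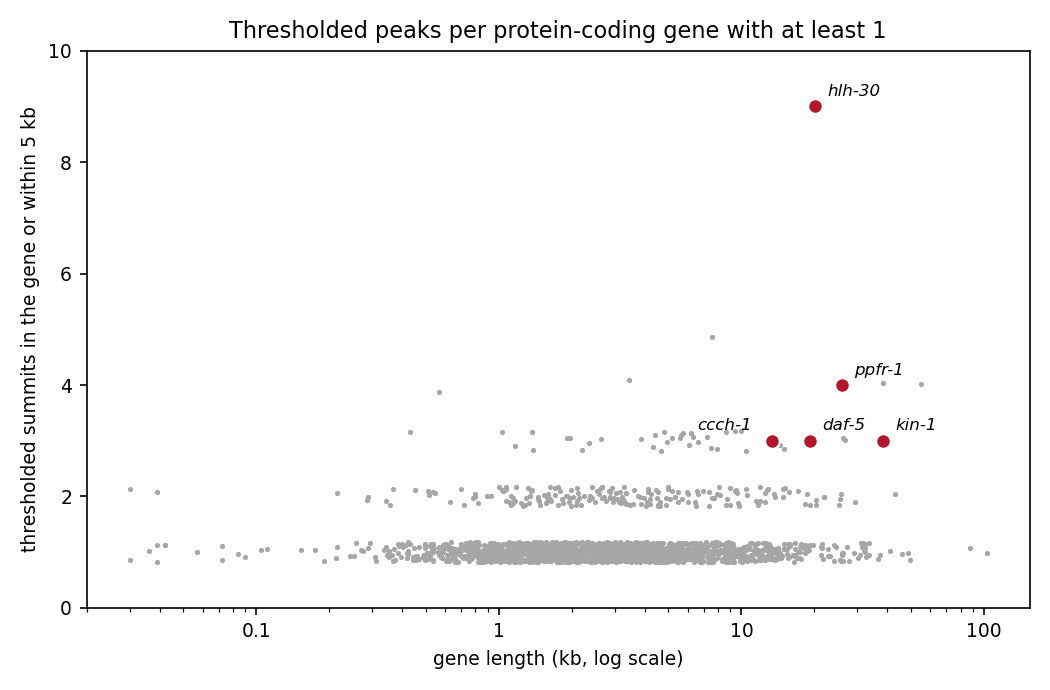
Number of thresholded summits in the gene or within 5 kb (y axis) against gene length in kb (x axis, log scale) for the 2035 protein-coding genes with at least 1. Grey points are moved slightly up or down to show overlapping ones, and red points are the 5 genes at their own values. The point of hlh-30 stands at 9, and the other 4 are at 3 or 4 among other genes with the same number.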

How the data were processed

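Groups and replicate numbers came from the labels. The authors deposited lists on ce11 of peaks and background regions for each replicate and for both together, and a set thresholded by IDR, per the labels of the files. The sources used here do not give the aligner or the caller. The deposited signal is the height from the authors' caller. The score in the column for q-values, deposited by the authors, was not used. Lists on ce10 were not used. The thresholded set was the 910 regions of highest signal of the joint list.

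Gene models came from Ensembl release 115 (WBcel235). A summit belonged to a gene if in it or within 5 kb. Replicate matches needed summits within 100 bp. Inner starts lay at least 300 bp from the outer start and were merged within 100 bp. Python 3.11.15 and SciPy 1.17.1 were used. The counting was tested on simulated data. Genes and lists were chosen with earlier results of these data known. Named genes are the 5, the closest gene to each, genes sharing their summits and listed genes with a summit. Alternatives were other distances, the higher part of the set, each replicate alone and, chosen after seeing the data, hlh-30 left out.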

Additional observations from a re-analysis of the deposited data

How the results depend on the processing

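The 22 summits stayed 22 with 2 kb and with the gene body alone, and were 24 with 10 kb. The higher-signal part of the set left 11, and single replicates gave 12 to 31, the lowest without replicate 2 and the highest without replicate 1. At hlh-30 alone these were 4, 2 and 28 against 9, so its count rests on replicate 2; at the other 4 genes replicate 1 alone gave 2 or 3 each and replicate 2 alone gave 0 or 1. Median spacing, 2026 bp, ran from 795 to 4124 bp in single replicates, and was 4369.5 bp in the higher part and 917 bp over all pooled regions.

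The intron share of 95.5% was 100% in the higher part, without hlh-30 and in replicate 1 alone. In replicate 2 alone it was 64.5% of all 31 regions at the loci. That base includes regions beside hlh-30, outside the gene body, which count as not in an intron. The 64.5% therefore does not give the share in exons. The share near an inner start, 27.3%, was 9.09% within 250 bp and ran from 8.33% to 19.4% in single replicates. The 19.4% of replicate 2 alone also counts regions outside the gene bodies in its base. Matches in both replicates, 63.6%, were 81.8% within 200 bp and 13.6% when only the highest regions of each replicate counted. Any of the 5 sequences lay within 50 bp of 50% of summits and within 25 bp of 27.3%, and within 50 bp of 61.5% without hlh-30. Listed genes with a summit, 21, were 9 with the gene body alone and 11 in the higher part. Genes with at least 3 summits, 46, were 18 with 2 kb, 9 with the gene body alone and 19 in the higher part. The cause of these changes was not tested beyond fewer peaks or shorter distances, and unknown read depth limits every count.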
